A study of Mus musculus with 6 samples.

Results

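The genes described are 10 enzymes and regulators of de novo lipogenesis, the making of fatty acids from acetyl-CoA: Fasn, Acaca, Acacb, Acly, Me1, Acss2, Srebf1, Mlxipl, Thrsp and Mid1ip1. They were chosen by name, and every probe set with one of these as its single gene symbol was taken, which gave 17 probe sets of 22626 tested. All 10 genes had a probe set, and 6 of them had 1. They were followed in liver tumours of 6 male mice, 3 Alb/AEG-1 and 3 WT, each hybridized to its own Affymetrix expression array. Alb/AEG-1 mice carry a 5.3-kb fragment injected into embryos of B6CBAF1/J parents, and are named for albumin, whose promoter is active in hepatocytes, and for astrocyte elevated gene-1. The labels spell out neither the promoter nor the species of the transgene, and give CD-1 as the background strain of both groups. Mice of both groups had received 1 injection of the liver carcinogen N-nitrosodiethylamine, at 10 µg per g body weight and 14 days of age, and tumours were collected at 28 weeks. Every comparison is therefore between tumours, and normal liver was not analysed here.

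In hepatocytes, sugar carbon leaves the mitochondria as citrate, is turned into acetyl-CoA and malonyl-CoA in the cytosol, and is joined into palmitate with reducing power from NADPH. The pathway is switched on after feeding by insulin, acting through the transcription factor SREBP-1, and by glucose, acting through the transcription factor ChREBP. Many liver tumours use it as a source of membrane lipid.

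The values are log2 levels from robust multi-array averaging (RMA), so a difference of 1 is a doubling, and levels of different probe sets are not set against each other. The animal numbers in the titles form a higher range (Alb/AEG-1 replicate 3, WT replicates 2 and 3) and a lower range (Alb/AEG-1 replicates 1 and 2, WT replicate 1). The labels do not call these batches. The 6 array medians lay between 5.82 and 5.84, and 3 arrays per group limit the precision. The main Mtdh probe set, which reads the mouse gene for AEG-1, was at 9.57, 9.40 and 9.15 in Alb/AEG-1 tumours and at 9.32, 9.03 and 9.17 in WT tumours, so the groups overlapped. The mean over the hepatocyte markers was 13.63 to 13.74 in Alb/AEG-1 and 13.64 to 13.70 in WT tumours. The mean over the 5 measured adipocyte markers was 4.31 to 4.70 in Alb/AEG-1 and 4.21 to 4.57 in WT tumours, below the array medians. Single markers lay above the medians in some arrays. Lipe reached 6.19 in WT replicate 2, and Cidea reached 6.21 in Alb/AEG-1 replicate 1 only. In bulk tumour RNA, fewer cells of a type and less RNA per cell cannot be told apart.

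None of the 10 genes differed between Alb/AEG-1 and WT tumours past the threshold of an adjusted p of 0.05 in limma, a linear model with moderated variances fitted over all probe sets. In that fit 0 of the 17 lipogenesis probe sets passed, where 0.00442% of all probe sets did. The single one was for Gbp7, an interferon-inducible GTPase. Without adjustment, 1 of the 10 genes was below a p of 0.05 by its probe set of highest mean, against a background of 8.33% of all genes, and that gene was Srebf1. The differences were positive in 5 genes and negative in 5, with a median of 0.00 log2 against -0.01 over all 12393 genes.

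The 2 groups overlapped in each of the 6 enzymes. Fasn, encoding fatty acid synthase, which builds palmitate, was at 10.58, 10.71 and 11.84 in Alb/AEG-1 tumours and at 11.40, 11.16 and 10.70 in WT tumours. The highest and the lowest array were both Alb/AEG-1, so the WT values lay inside the Alb/AEG-1 range. The Fasn difference was -0.05 ± 0.34 log2 (SE), with a 95% interval of -0.83 to 0.74 and an adjusted p of 0.974 in limma. In linear terms the interval runs from 0.56-fold to 1.67-fold, so these arrays do not exclude a change within those bounds.

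**Figure D1:**
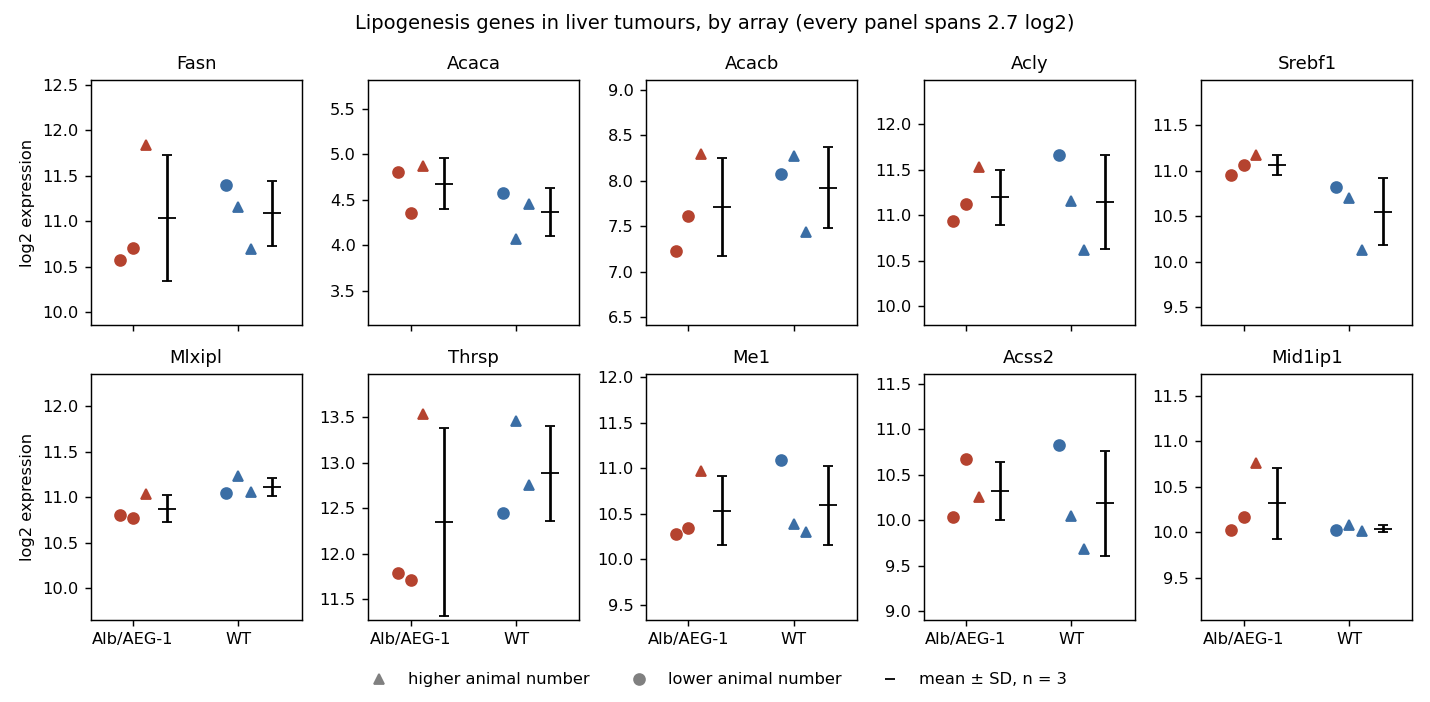
Log2 level of each lipogenesis gene in every array, 1 panel per gene with its own vertical axis of equal span, by the probe set of highest mean, with Alb/AEG-1 on the left and WT on the right of each panel; triangles are arrays of higher and circles arrays of lower animal number, and bars show the mean ± SD (n = 3). The groups overlap in 8 of 10 panels, and Srebf1 and Mlxipl are the exceptions.

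Acly and Acss2 supply acetyl-CoA. Acly, encoding ATP citrate lyase, which cleaves citrate, was at 10.94, 11.13 and 11.53 in Alb/AEG-1 tumours and at 11.66, 11.16 and 10.62 in WT tumours by its probe set of highest mean. WT held both extremes here, replicate 1 being the highest and replicate 3 the lowest of the 6 arrays. The difference was 0.05 ± 0.26 (adjusted p = 0.958 in limma). The 4 other Acly probe sets gave 0.06, -0.04, -0.35 and -0.01, and 3 of them are of a type that may also bind related transcripts. The one at -0.35 was low on the scale, at 4.95 ± 0.11 in Alb/AEG-1 and 5.30 ± 0.67 in WT tumours (SD, n = 3 each).

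Acss2, encoding the acetyl-CoA synthetase that uses acetate, was at 10.04, 10.67 and 10.25 in Alb/AEG-1 tumours and at 10.82, 10.05 and 9.69 in WT tumours. As for Acly, WT replicate 1 was the highest array and WT replicate 3 the lowest. The Acss2 difference was 0.13 ± 0.29 (adjusted p = 0.902 in limma), and the other probe set gave 0.19 ± 0.32.

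Acetyl-CoA carboxylase makes malonyl-CoA, the committed step. Acacb, whose product sits at mitochondria and whose malonyl-CoA restrains fatty acid import for oxidation, was at 7.23, 7.61 and 8.29 in Alb/AEG-1 tumours and at 8.07, 8.27 and 7.43 in WT tumours. Alb/AEG-1 replicate 1 was the lowest array and Alb/AEG-1 replicate 3 the highest, and the difference was -0.21 ± 0.30 (adjusted p = 0.840 in limma). Acaca, encoding the cytosolic carboxylase that feeds fatty acid synthase, was at 4.80, 4.35 and 4.88 in Alb/AEG-1 tumours and at 4.57, 4.06 and 4.45 in WT tumours. All 6 values lay below the array medians, and WT replicate 1 was above Alb/AEG-1 replicate 2. The Acaca difference was 0.31 ± 0.18, with a 95% interval of -0.10 to 0.73 (adjusted p = 0.651 in limma), from its only probe set. It was 0.48 without Alb/AEG-1 replicate 2, where its unadjusted p fell below 0.05, and 0.17 without WT replicate 2.

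Me1, encoding cytosolic malic enzyme, which yields NADPH, was at 10.28, 10.35 and 10.97 in Alb/AEG-1 tumours and at 11.09, 10.39 and 10.30 in WT tumours. A single array stood high in each group, Alb/AEG-1 replicate 3 and WT replicate 1, and the other 4 lay between 10.28 and 10.39. The Me1 difference was -0.06 ± 0.25 (adjusted p = 0.951 in limma), and the other probe set gave -0.15 ± 0.28.

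Among the 4 regulators, Srebf1 encodes SREBP-1, which insulin activates and which drives transcription of Fasn, Acaca and Acly. It was at 10.95, 11.06 and 11.17 in Alb/AEG-1 tumours and at 10.82, 10.69 and 10.13 in WT tumours. Every Alb/AEG-1 array was above every WT array, and the Alb/AEG-1 arrays lay closer together (SD 0.11) than the WT arrays (SD 0.37). The difference was 0.52 ± 0.18 log2, or 1.43-fold with a 95% interval of 1.07 to 1.90, and did not pass after adjustment (adjusted p = 0.602 in limma). The probe set matches several transcripts of the gene, so isoforms were not measured apart. The Srebf1 difference was 0.51 without Alb/AEG-1 replicate 2, with an unadjusted p of 0.051 in limma. It was 0.46 without Alb/AEG-1 replicate 3, with an unadjusted p of 0.065 in limma, and 0.31 without WT replicate 3.

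Mlxipl encodes ChREBP, the glucose-responsive partner of Mlx. It was at 10.81, 10.77 and 11.04 in Alb/AEG-1 tumours and at 11.04, 11.23 and 11.06 in WT tumours. The groups did not overlap, but the highest Alb/AEG-1 array and the lowest WT array, replicates 3 and 1, agree to 2 decimals. The difference was -0.24, with a 95% interval of -0.48 to 0.01 (adjusted p = 0.618 in limma). Srebf1 and Mlxipl were thus the 2 of 10 genes whose groups did not overlap, 1 in each direction, where 15.1% of all genes did not overlap.

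Thrsp (Spot 14), a nuclear and cytosolic protein that carbohydrate and thyroid hormone induce, had the widest spread of the 10 genes. It was at 11.79, 11.71 and 13.54 in Alb/AEG-1 tumours and at 12.44, 13.46 and 12.76 in WT tumours. The highest 2 arrays were Alb/AEG-1 replicate 3 and WT replicate 2, so the groups overlapped. The Thrsp difference was -0.54 ± 0.49 (adjusted p = 0.757 in limma), and the other probe set gave -0.57 ± 0.58. It depended on single arrays, being -1.13 without Alb/AEG-1 replicate 3, where its unadjusted p fell below 0.05. It was -0.26 without Alb/AEG-1 replicate 1, -0.22 without Alb/AEG-1 replicate 2 and -0.25 without WT replicate 2.

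Mid1ip1, encoding the relative of Spot 14 that promotes the polymerization of acetyl-CoA carboxylase, was at 10.03, 10.17 and 10.76 in Alb/AEG-1 tumours and at 10.03, 10.08 and 10.01 in WT tumours. The WT arrays were nearly equal (SD 0.04), Alb/AEG-1 replicates 2 and 3 were above all of them, and Alb/AEG-1 replicate 1 lay among them. The difference was 0.28 ± 0.18 (adjusted p = 0.677 in limma). It was 0.059 without Alb/AEG-1 replicate 3, and 0.42 without Alb/AEG-1 replicate 1, where its unadjusted p fell below 0.05.

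**Figure D2:**
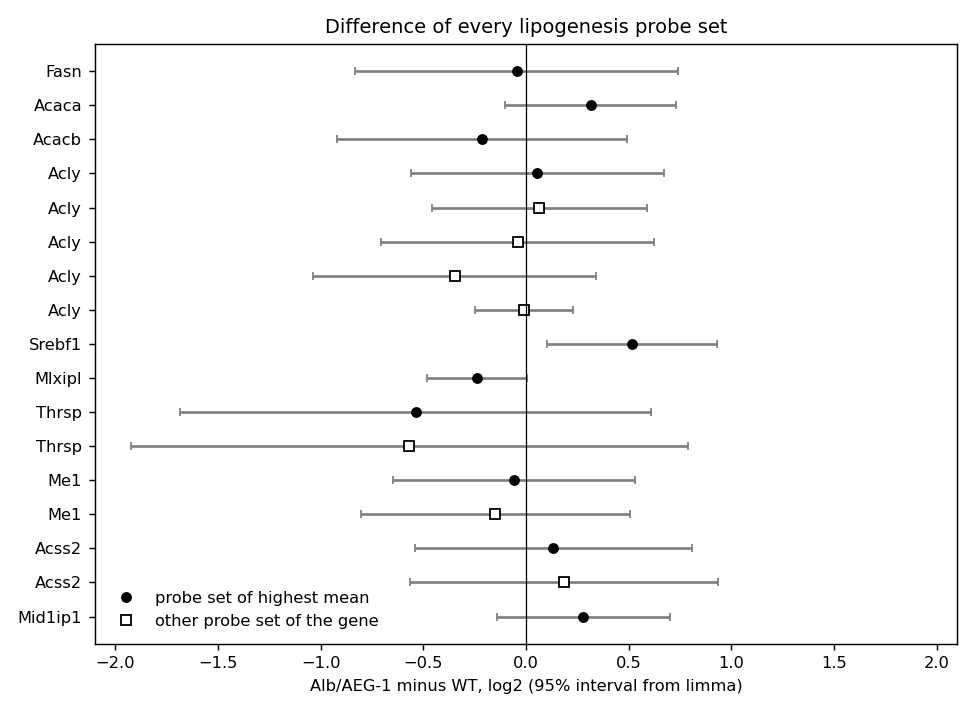
Alb/AEG-1 minus WT difference in log2 for all 17 probe sets of the 10 genes, 1 row per probe set, with 95% intervals from limma; filled circles are the probe set of highest mean of a gene and open squares its other probe sets. The interval lies wholly above 0 for Srebf1 (0.10 to 0.93), and every other interval includes 0.

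Several of the 10 genes were high in the same arrays as each other, 1 of each genotype. Alb/AEG-1 replicate 3 was the highest array for 6 of the 10 genes and above the gene's mean for 9. WT replicate 1 was the highest for 3 (Acly, Me1 and Acss2) and above the mean for 8. WT replicate 3 was the lowest array for 4 genes, Alb/AEG-1 replicate 1 for 3 and Alb/AEG-1 replicate 2 for 2. The matching shares over all genes were not counted, so these counts describe the 10 genes only. Averaged over the 10 genes, the deviation from the gene's mean was -0.25, -0.14 and 0.43 log2 in the Alb/AEG-1 arrays and 0.20, 0.06 and -0.28 in the WT arrays. The highest mean deviation was thus in an Alb/AEG-1 array and the lowest in a WT array.

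**Figure D3:**
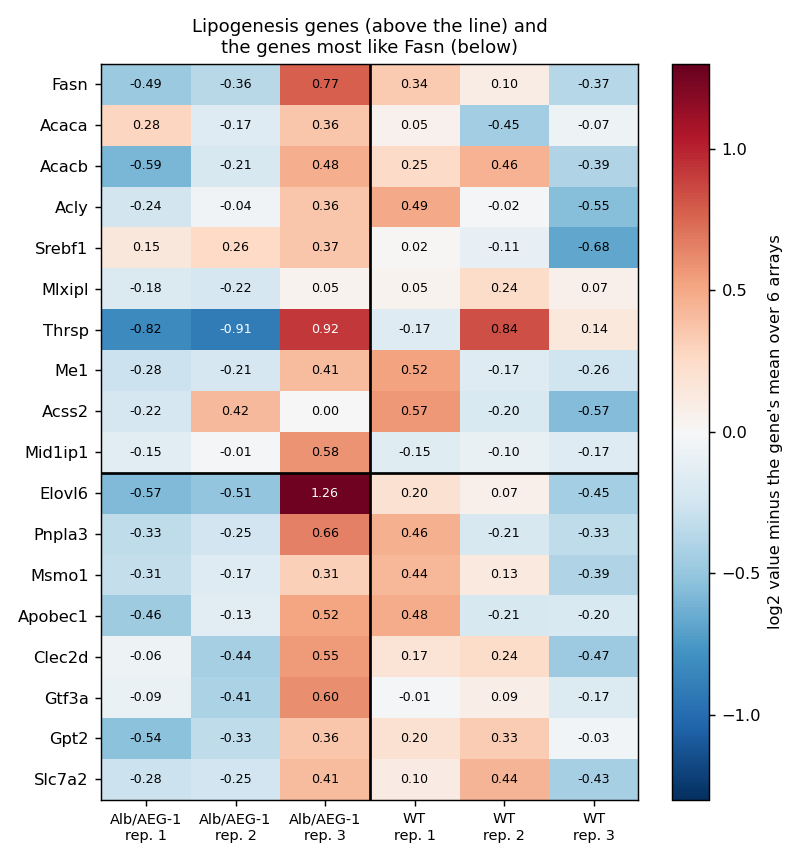
Deviation of each array from the gene's mean over the 6 arrays, in log2, as numbers and as a colour scale from blue (below) to red (above), with 1 row per gene, the Alb/AEG-1 arrays in the left 3 columns and the WT arrays in the right 3; the lipogenesis genes stand above the horizontal line and the genes most like Fasn below it. Alb/AEG-1 replicate 3 is above the mean in 9 of the 10 lipogenesis genes, and WT replicate 1 is the highest for Acly, Me1 and Acss2 but below the mean for Thrsp.

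Likeness to Fasn over the 6 arrays was taken among the 707 genes with a mean of at least 6 and an SD of at least 0.3. It is a description over arrays of both genotypes. The closest was Elovl6, which elongates the palmitate that fatty acid synthase makes, with a Pearson r of 0.973. Elovl6 was at 9.24, 9.30 and 11.07 in Alb/AEG-1 tumours and at 10.01, 9.88 and 9.37 in WT tumours. Next came Pnpla3, encoding a lipid droplet acyl hydrolase (0.932), and Msmo1, a cholesterol synthesis enzyme (0.898). Acacb (0.890) and Me1 (0.873) were among the closest 10, which also held Apobec1, Clec2d, Gtf3a, Gpt2 and Slc7a2. The remaining lipogenesis genes were less like Fasn, with r of 0.821 for Acly, 0.733 for Mid1ip1, 0.724 for Thrsp, 0.514 for Mlxipl, 0.393 for Srebf1, 0.321 for Acss2 and 0.264 for Acaca. Srebf1 had a lower r with Fasn than Acly or Me1, over 6 arrays. These are mRNA levels, and the activity of SREBP-1 was not measured. Acaca lay below the mean of 6, and Mid1ip1 and Mlxipl below the SD of 0.3. They were therefore not among the 707 genes and could not be among the closest 10.

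The genotype difference took opposite signs in the 2 ranges of animal numbers for 6 of the 10 genes. Within the higher numbers the Alb/AEG-1 minus WT difference was positive in 9 of 10 genes, with a median of 0.62 log2. Within the lower numbers it was negative in 7 of 10, with a median of -0.55. Over all genes the corresponding medians were -0.01 and 0.00. Each range compares 3 arrays, and the lone ones are Alb/AEG-1 replicate 3 in the higher and WT replicate 1 in the lower range, the arrays in which the 10 genes averaged highest.

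For Fasn the difference was 0.91 within the higher and -0.76 within the lower numbers, an interaction of 1.67 ± 0.30 log2. For Me1 it was 0.63 and -0.77, an interaction of 1.40 ± 0.19, and for Acly 0.64 and -0.63, an interaction of 1.27 ± 0.34. Mlxipl, at -0.11 and -0.25, and Srebf1, at 0.76 and 0.19, kept their sign in both. In limma's interaction test 5 of the 10 genes had an unadjusted p below 0.05, namely Fasn, Me1, Acly, Thrsp and Mid1ip1, against a background of 4.86% of all genes. All 5 were positive, a direction in which 2.63% of all genes passed.

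None of these interactions passed after adjustment over all probe sets. The smallest adjusted p among the 10 genes was 0.463 for Me1, and 0% of all probe sets passed. Leaving out 1 array at a time left 4 to 7 of the 10 genes below an unadjusted p of 0.05, where 4.36% to 5.47% of all genes were in the same fits. Fasn, Acly, Me1 and Mid1ip1 were among them in all 4 of those fits. The fit cannot be made without Alb/AEG-1 replicate 3 or WT replicate 1, so what those arrays contribute could not be tested.

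**Figure D4:**
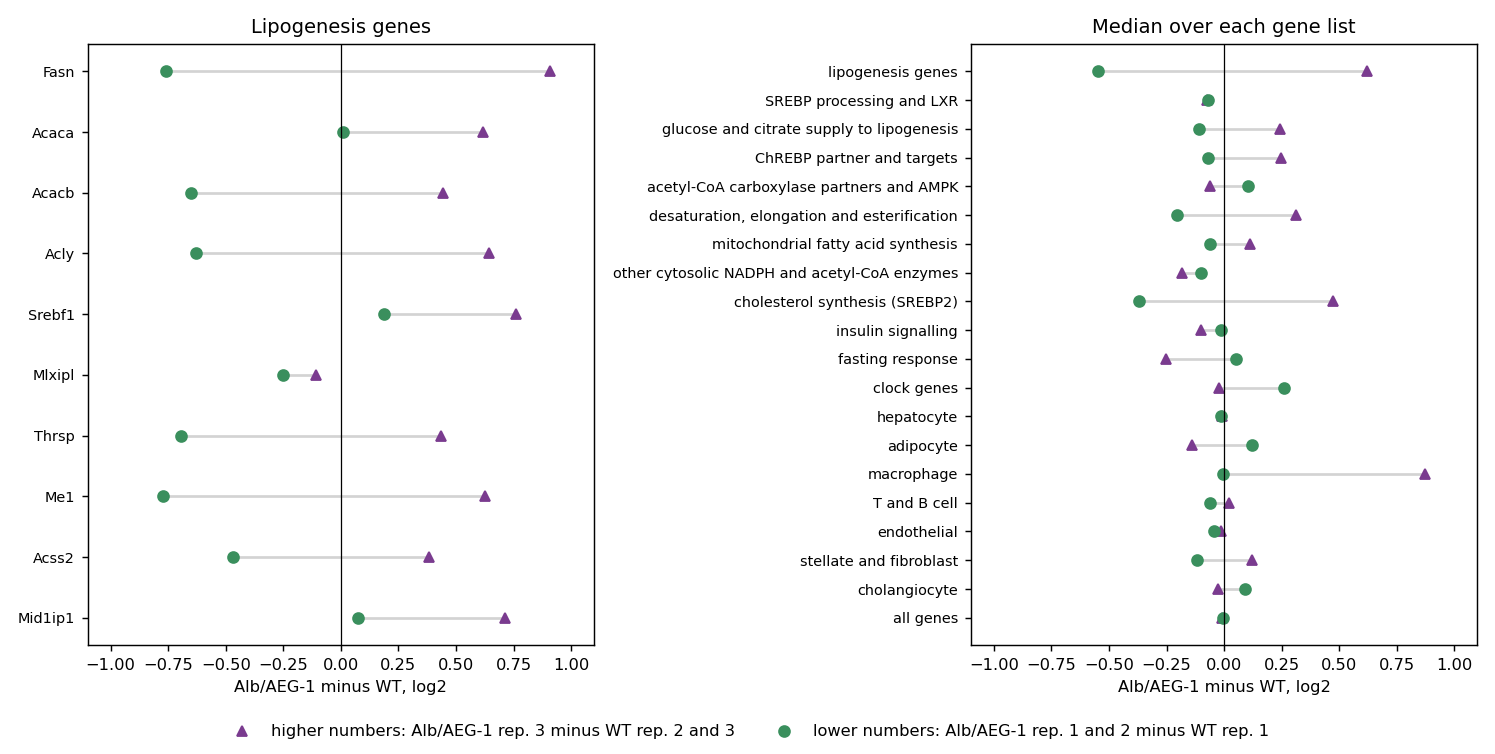
Alb/AEG-1 minus WT difference in log2 within the higher animal numbers (triangles) and within the lower (circles), with a line joining the 2 values; the left panel has 1 row per lipogenesis gene, and the right panel 1 row per gene list, by its median. The lipogenesis medians are 0.62 within the higher and -0.55 within the lower numbers, and the macrophage marker medians are 0.87 and -0.01.

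All 7 macrophage markers had a positive interaction with an unadjusted p below 0.05, where 2.63% of all genes had. The mean level of these markers was 7.09 to 7.87 in Alb/AEG-1 and 6.88 to 7.19 in WT tumours. Their Alb/AEG-1 minus WT median was 0.87 within the higher and -0.01 within the lower numbers. Their part in the lipogenesis values was not tested. In none of the other marker lists (hepatocytes, adipocytes, T and B cells, endothelium, stellate cells and fibroblasts, cholangiocytes) was any interaction below that p.

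Cholesterol synthesis, which SREBP2 drives, had an interaction with an unadjusted p below 0.05 in 10 of 13 measured genes, all positive. Over all genes, 4.86% were below that p in either direction and 2.63% with a positive interaction. Hmgcs1, which makes the HMG-CoA that enters the pathway, was at 11.07, 11.44 and 11.32 in Alb/AEG-1 tumours and at 11.97, 10.06 and 9.77 in WT tumours. WT replicate 1 stood highest, as it did for Acly and Me1, but Alb/AEG-1 replicate 3 did not stand out from the other Alb/AEG-1 arrays. This describes Hmgcs1 and not the whole list. For Fdps, Alb/AEG-1 replicate 3 was the highest array, at 11.34, against 10.85 and 10.82 in Alb/AEG-1 replicates 1 and 2. Pgd, an enzyme of the pentose phosphate route to NADPH, had the smallest genotype p of the 14 measured genes that supply glucose carbon and citrate. It was at 8.71, 8.75 and 9.08 in Alb/AEG-1 tumours and at 9.04, 8.33 and 8.23 in WT tumours, with the same 2 arrays highest as for Me1. That list had 4 of 14 genes below the same interaction p, and desaturation, elongation and esterification 5 of 13. ChREBP's partner and targets had 3 of 9, and in these 3 lists all such interactions were positive. The fasting response had 2 of 11, in opposite directions. SREBP processing had 0 of 9, insulin signalling 0 of 10 and the clock genes 0 of 13.

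In Thrsp the arrays overlapped by genotype but not by range of animal numbers. Its 3 arrays of higher number were at 13.54, 13.46 and 12.76, and its 3 of lower number at 11.79, 11.71 and 12.44. All 3 arrays of higher number were above all 3 of lower number. The share of all genes with ranges apart in this way was not counted, so this describes Thrsp only. With genotype in the same fit, the higher minus lower difference of Thrsp was 1.22 ± 0.28 log2 (adjusted p = 0.310 in limma), and the other probe set gave 1.43 ± 0.35. Once the range was in the fit, the genotype difference of Thrsp was -0.13, against -0.54 without it. That fit takes the shift to be equal in both genotypes. The interaction of Thrsp was 1.13 ± 0.40 log2, with an unadjusted p of 0.033 and an adjusted p of 0.962 in limma.

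Thrsp was the 1 of 10 genes with an unadjusted p below 0.05 for the range, where 8.74% of all genes were, a share near that background. After adjustment 0.00442% of all probe sets passed, a single one for Usp2, a ubiquitin-specific protease. Leaving out 1 array at a time gave between 1 and 4 of the 10 genes, where 6.92% to 9.14% of all genes were below that p in the same fits. The 4 came without WT replicate 1, and without Alb/AEG-1 replicate 3 the 3 were Acly, Me1 and Acss2, with Thrsp no longer among them.

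Of the 13 measured clock genes, 9 were below that unadjusted p for the range, 6 higher and 3 lower in the higher range, and none passed after adjustment. The smallest adjusted p in limma was 0.082, for Npas2, a partner of Clock in the activating arm of the clock, at -2.46 ± 0.21. Arntl, of the same arm, gave -1.25 ± 0.35, and the repressor Nfil3 -0.92 ± 0.19. Tef, a clock output transcription factor, was at 9.16, 9.50 and 8.67 in the arrays of higher number and at 8.09, 7.85 and 7.71 in those of lower number. As for Thrsp, Alb/AEG-1 replicate 3 and WT replicate 2 were the highest arrays of Tef. This order was not common to the clock genes. For Per1 and Per2, also higher in the higher range, WT replicate 3 was the highest array, at 7.99 and 8.13. Tef, Npas2, Arntl, Nfil3, Per1 and Per2 were chosen after their values were seen. Among ChREBP's partner and targets 5 of 9 were below that p for the range, all higher in the higher range. Klf10, a transcription factor that glucose induces, gave 1.27 ± 0.36. Other lists, some sharing genes, also held such genes, where 8.74% of all genes were below that p. Glucose and citrate supply had 6 of 14, the fasting response 4 of 11, cholesterol synthesis 4 of 13 and insulin signalling 3 of 10. Desaturation, elongation and esterification had 4 of 13 and SREBP processing 3 of 9. Acetyl-CoA carboxylase partners and AMPK had 2 of 9, and mitochondrial fatty acid synthesis 0 of 8. The labels give no hour of tissue collection or feeding state, so the part of either was not tested.

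In the lists of genes around the pathway, none passed between genotypes after adjustment in limma. The 9 measured genes of SREBP processing and its co-activators had 0 below an unadjusted p of 0.05, with a median difference of -0.02. Srebf2, the cholesterol counterpart of Srebf1, differed by 0.09 ± 0.12. Usf2, a factor that binds the Fasn promoter, was below WT in all 3 Alb/AEG-1 arrays, by -0.15 ± 0.08. Lpin1, which feeds back on SREBP-1 activity, differed by -0.90 ± 0.61.

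Of the 14 genes of glucose and citrate supply and the 9 ChREBP genes, 0 were below that p. Of the 9 partners of acetyl-CoA carboxylase and AMPK, the kinase that inhibits it, 1 was: Prkab1, an AMPK subunit, at 7.72, 7.91 and 7.67 in Alb/AEG-1 tumours and at 7.55, 7.48 and 7.35 in WT tumours. The groups did not overlap, and the difference was 0.30 ± 0.10 (adjusted p = 0.602 in limma). Mlycd, which removes malonyl-CoA, differed by -0.09 ± 0.08.

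Downstream, 1 of the 13 measured genes of desaturation, elongation and esterification was below that p, the desaturase Scd2. It was at 8.35, 9.35 and 8.46 in Alb/AEG-1 tumours and at 5.47, 5.79 and 4.79 in WT tumours, with groups far apart, and did not pass after adjustment (adjusted p = 0.075 in limma). Its difference was 3.17 within the higher and 3.38 within the lower numbers, a positive difference in both. The liver desaturase Scd1 differed by 0.08 ± 0.12. Fads1 gave -0.17 ± 0.11 and Dgat2, which makes triglyceride, -0.24 ± 0.16.

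Mitochondrial fatty acid synthesis, a separate pathway that makes lipoic acid precursors, had 0 of 8 measured genes below that p. The other NADPH and acetyl-CoA enzymes had 0 of 5, the cholesterol genes 0 of 13, insulin signalling 0 of 10 and the clock genes 0 of 13. Me2, the mitochondrial relative of Me1, was at 4.68, 4.58 and 4.64 in Alb/AEG-1 and at 4.84, 4.91 and 4.73 in WT tumours. The groups did not overlap but all values were below the array medians.

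The fasting response, in which lipogenesis is low, had 2 of 11 measured genes below that p, in opposite directions, where 8.33% of all genes were. Fgf21, a hormone that the fasted or stressed liver releases, was at 6.27, 6.28 and 5.79 in Alb/AEG-1 tumours and at 5.45, 4.98 and 5.60 in WT tumours, 0.77 ± 0.19 apart (adjusted p = 0.596 in limma). Angptl4, an inhibitor of lipoprotein lipase, differed by -0.73 ± 0.29 with overlapping groups.

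Among the WT arrays, replicate 1 was the highest for Fasn and Acly, and replicate 2 for Thrsp. Over all 6 arrays, Alb/AEG-1 replicate 3 was the highest for Fasn and Thrsp, and WT replicate 1 for Acly. The promoters of these 3 genes are shown side by side. Each is the 250 bases before the start that RefSeq lists, on build GRCm38.p6, read 5′ to 3′ along the gene's strand. Capitals mark CCAAT, the box that NF-Y binds, and GGGCGG, the GC box, each on either strand (ATTGG and CCGCCC read the other way).
Fasn promoter, chr11:120824548-120824797, minus strand: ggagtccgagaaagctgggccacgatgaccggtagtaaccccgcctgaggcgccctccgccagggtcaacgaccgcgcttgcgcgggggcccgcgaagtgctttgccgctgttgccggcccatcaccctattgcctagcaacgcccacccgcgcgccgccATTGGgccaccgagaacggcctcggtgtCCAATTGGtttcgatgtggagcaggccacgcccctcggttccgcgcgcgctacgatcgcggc
Acly promoter, chr11:100528001-100528250, minus strand: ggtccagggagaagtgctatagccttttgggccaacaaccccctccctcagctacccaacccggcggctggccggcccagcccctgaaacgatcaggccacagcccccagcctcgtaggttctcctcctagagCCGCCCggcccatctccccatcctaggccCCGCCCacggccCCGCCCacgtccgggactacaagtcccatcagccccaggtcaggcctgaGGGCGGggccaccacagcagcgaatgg
Thrsp promoter, chr7:97417551-97417800, minus strand: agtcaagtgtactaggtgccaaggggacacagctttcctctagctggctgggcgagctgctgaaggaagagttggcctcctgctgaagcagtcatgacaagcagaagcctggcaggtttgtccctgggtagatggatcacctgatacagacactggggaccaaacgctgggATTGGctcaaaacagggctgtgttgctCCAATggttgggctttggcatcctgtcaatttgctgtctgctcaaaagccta

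In Fasn the first base of the CCAAT boxes lay 90, 62 and 59 bases before the start, the last 2 overlapping. Thrsp had CCAAT boxes at 79 and 52 bases and no GC box in the window. Acly had GC boxes at 117, 88, 76 and 27 bases and no CCAAT box in the window. Over the 14 listed starts of the 10 genes, CCAAT was in 8 windows of 7 genes, and in 33.85% of all 32851 mouse windows of that length. GGGCGG was in 7 windows of 6 genes, and in 32.74% of all windows. CACGTG, an E-box, was in 1 window, of Mlxipl, and in 6.02% of all. TCACNCCAC, a core of the sterol regulatory element, was in another Mlxipl window and in 1.05% of all. These matches describe letters in the reference sequence and not binding in these tumours.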

How the data were processed

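RNA had been extracted with Trizol, and 5 µg per tumour was labelled with biotin for the arrays, per the labels' protocols. The authors deposited log2 values that the submitters' processing notes attribute to RMA, with no version. RMA equalizes the distribution of values between arrays and so hides any change common to most genes. The 64 control probe sets were left out of 22690, and 20380 of the others had 1 gene symbol, 691 several and 1555 none. Symbols were updated through a RefSeq gene table (GRCm38.p6), and each gene is given by its probe set of highest mean.

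Genotype labels gave the groups, and replicate numbers follow accession order. Each title names a different animal. Two-sided limma fits (version 3.58.1, R 4.3.3, lmFit with eBayes) were adjusted by Benjamini-Hochberg over all probe sets at 0.05. The range of animal numbers, split at 100, entered as a further term or as an interaction. The total degrees of freedom were 7.53 in the genotype fit and 5.74 in the interaction fit. The genotype and interaction fits were tested on simulated data. Promoters were searched and plots drawn with Python 3.11.15, pandas 2.3.3 and matplotlib 3.10.9. The genes, lists and tests were chosen with earlier results of these data known. Named from each list were up to 3 genes with the smallest unadjusted genotype p. Named for likeness were the 10 genes with the highest correlation with Fasn. Scd1, Tef, Npas2, Arntl, Nfil3, Per1, Per2, Fdps, Gbp7 and Usp2 were chosen after their values were seen. So was the count of genes below an unadjusted p under each alternative. Alternatives varied the moderation (trend, robust), the scaling (quantile, median), the probe sets (without the lowest 40% or those that may cross-hybridize, 1 per gene, gene means), the array weights, the range term and the arrays included.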

Additional observations from a re-analysis of the deposited data

How the results depend on the processing

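Under every alternative run, 0 of the lipogenesis probe sets passed between genotypes. Over all probe sets the count was 1, against 2 with trend moderation, 2 with the mean of a gene's probe sets, 0 with 1 probe set per gene, 0 with the range term and 0 to 1 leaving out arrays (0 without Alb/AEG-1 replicate 3, WT replicate 1 or WT replicate 2). Lipogenesis genes below an unadjusted p of 0.05 between genotypes numbered 1 (Srebf1), against 2 with trend moderation, quantile normalization, gene means or array weights (Srebf1 and Mlxipl) and 2 with the range term (Srebf1 and Mid1ip1). Leaving out arrays gave 1 to 2: Srebf1 and Mid1ip1 without Alb/AEG-1 replicate 1, Acaca alone without replicate 2, Mlxipl and Thrsp without replicate 3, and Srebf1 alone without each WT replicate in turn. For the range they numbered 1, against 1 to 4 leaving out arrays (2 and 3 without Alb/AEG-1 replicates 1 and 3, 4 and 3 without WT replicates 1 and 3). The interaction count over all probe sets was 0, against 1 with robust moderation, and the 5 lipogenesis genes below an unadjusted p became 4 to 7 leaving out arrays.
The sign turned for Fasn (0.074) and Acss2 (-0.042) with the range term, for Acly with the mean of its probe sets (-0.056), and for other Acly probe sets with median centring (0.0027) and array weights (0.0080); the cause was not tested. Leaving out arrays turned the sign for Fasn (-0.44 to 0.19), Acacb (-0.51 to 0.027), Acly (-0.21 to 0.31; other probe sets -0.35 to 0.25, -0.072 to 0.063 and -0.17 to 0.27), Acss2 (-0.12 to 0.45 and -0.086 to 0.57) and Me1 (-0.28 to 0.19 and -0.40 to 0.10). Srebf1 (0.31 to 0.65) and Mlxipl (-0.32 to -0.18) kept theirs, as did Acaca (0.17 to 0.48), Mid1ip1 (0.059 to 0.42) and Thrsp (-1.13 to -0.22 and -1.24 to -0.16). No paired analysis was possible because replicate numbers follow accession order only. As the values were on a log scale, the planned offsets for linear values were not run.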
